A study of Mus musculus with 9 samples.

Results

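Levels of 9 genes that mark T cells were measured in mouse colonic mucosa: Cd3d, Cd3e and Cd3g of the T cell receptor complex, the coreceptor genes Cd4 and Cd8a, the kinase gene Lck, the surface receptor genes Cd2 and Cd27, and the chemokine gene Ccl5. The genes were taken by name, and the probes were those whose RefSeq transcript belongs to one of these symbols in the RefSeq gene table. This gave 11 probes of 41174 on the array, of which 10 passed a filter on dim probes, and all 9 genes stayed among the 14193 named genes and 21095 features tested. One of 3 Cd8a probes did not pass, and Cd4 and one Cd8a probe were printed 10 times on each array.

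The series asked how a diet rich in calcium changes gene expression in mucosa exposed to a colon carcinogen. Total RNA came from colonic mucosa, labelled as normal, of outbred ICR mice, and 3 groups had 3 arrays each. The group hCA-Notumor received a diet with 3% calcium and had no tumors, the group hCA-Tumor received the same diet and had tumors, and the group DMH received a diet with 1.24% calcium. All 3 groups, DMH included, were given the colon carcinogen 1,2-dimethylhydrazine (DMH) subcutaneously, at a weekly dose of 20 mg/kg over 20 weeks, so no group was free of carcinogen. Whether DMH mice carried tumors is not stated beyond the word control. The labels do not tell whether each array was made from its own mouse, so p-values here cover array-to-array spread alone, some of which may be technical.

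On a T cell, the receptor chains that recognise antigen cannot signal by themselves and are held in a complex with the CD3 chains, whose cytoplasmic motifs are phosphorylated by the kinase LCK. LCK is carried to the receptor by CD4, which binds MHC class II, or by CD8, which binds MHC class I. CD2 is an adhesion receptor that binds CD48 in mice, CD27 is a costimulatory receptor of the TNF receptor family that binds CD70, and CCL5 is a chemokine made by activated T cells and natural killer cells, among others. In the colon T cells lie in the epithelium, in the lamina propria and in lymphoid follicles. The CD3 genes are the most restricted of the 9, while Cd4, Cd8a, Cd2, Cd27 and Ccl5 are also used by other cells such as natural killer cells, dendritic cells, lymphoid tissue inducer cells or B cells. In bulk mucosa, fewer T cells and less of an RNA per T cell cannot be told apart.

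Cd3d, Cd3e and Cd3g lie side by side on chromosome 9, and Cd4, Cd8a and Cd27 all lie on chromosome 6. The promoters of the CD3 genes and of Cd27 are shown because these genes carry the differences given later, or belong to the same complex. Each runs from 250 bases before to 50 bases after the start of transcription, as RefSeq places it on build GRCm38.p6: Cd3d at chr9:44981536-44981835 on the plus strand, Cd3e at chr9:45009562-45009861 on the minus strand, Cd3g at chr9:44980382-44980681 on the minus strand and Cd27 at chr6:125236978-125237277 on the minus strand. Capitals mark matches, on either strand, to 5 short motifs bound by factor families that act in T cells. For the E proteins, which open the receptor loci in thymocytes, the letters searched were CACCTG. For the RUNX family, which sets the choice between CD4 and CD8 lineages, they were TGTGGT. Those of the ETS family, active in all lymphocytes, were AGGAAG. Those of the GATA family, whose member GATA3 is needed for CD4 cells, were AGATAA. The TCF and LEF family, which acts early in T cell development, was searched for as CTTTGA.
Cd3d promoter: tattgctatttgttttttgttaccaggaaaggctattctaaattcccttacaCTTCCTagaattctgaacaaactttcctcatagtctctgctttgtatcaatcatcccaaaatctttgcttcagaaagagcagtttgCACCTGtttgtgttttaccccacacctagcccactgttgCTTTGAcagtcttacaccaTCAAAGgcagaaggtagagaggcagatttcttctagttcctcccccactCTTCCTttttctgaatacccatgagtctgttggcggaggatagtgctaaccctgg
Cd3e promoter: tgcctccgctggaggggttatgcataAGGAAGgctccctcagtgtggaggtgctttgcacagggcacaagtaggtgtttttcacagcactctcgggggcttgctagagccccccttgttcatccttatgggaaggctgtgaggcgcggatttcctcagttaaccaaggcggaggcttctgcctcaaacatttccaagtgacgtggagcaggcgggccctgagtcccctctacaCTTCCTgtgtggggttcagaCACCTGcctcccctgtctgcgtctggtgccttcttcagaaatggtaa
Cd3g promoter: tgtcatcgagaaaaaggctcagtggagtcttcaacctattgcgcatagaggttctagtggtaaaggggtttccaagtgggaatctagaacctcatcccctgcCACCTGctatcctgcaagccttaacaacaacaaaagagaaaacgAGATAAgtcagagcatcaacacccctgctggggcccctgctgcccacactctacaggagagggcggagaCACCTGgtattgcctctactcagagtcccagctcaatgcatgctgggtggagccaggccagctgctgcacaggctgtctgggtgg
Cd27 promoter: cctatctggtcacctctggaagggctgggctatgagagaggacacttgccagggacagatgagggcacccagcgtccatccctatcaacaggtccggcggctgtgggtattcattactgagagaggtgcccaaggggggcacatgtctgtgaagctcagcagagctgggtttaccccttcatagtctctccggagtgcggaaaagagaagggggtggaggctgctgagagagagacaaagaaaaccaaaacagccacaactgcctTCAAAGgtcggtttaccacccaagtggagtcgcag
The E protein motif was present in all of the 3 CD3 promoters, at -112 in Cd3d, at 4 in Cd3e and at -148 and -35 in Cd3g, where positions count from the start site. It was not found in the Cd27 window, which held only a TCF and LEF motif on the reverse strand at 16. The ETS motif occurred at -198 and -5 in Cd3d and at -224 and -17 in Cd3e, and the GATA motif at -104 in Cd3g. Over the 7 promoter windows that the RefSeq table holds for 6 of the 9 genes, 5 held the E protein motif, 4 the ETS motif, 2 the TCF and LEF motif, 1 the RUNX motif and 1 the GATA motif. Of all 32851 promoters of the same length 20.2% held the E protein motif, 35.4% the ETS motif, 16% the TCF and LEF motif, 16.8% the RUNX motif and 11.2% the GATA motif. A match of letters does not show that a factor binds there. Cd4, Cd2 and Ccl5 had no entry in that table.

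Values are given as scaled log2 signals, that is, the log2 of a probe's background-subtracted signal minus the 75th percentile of the array, so that 0 is the level of that percentile and 1 unit is a doubling. They compare arrays for one probe and do not rank genes against each other. Between 61.1 and 73.8% of an array's probes exceeded background clearly, and 0 spots were saturated. The arrays were spread over 3 slides. Slide 1 held all hCA-Notumor arrays and DMH replicate 1, slide 2 held hCA-Tumor replicates 1 and 2 and DMH replicates 2 and 3, and slide 3 held hCA-Tumor replicate 3. DMH replicate 1 and hCA-Tumor replicate 3 were thus on other slides than the rest of their groups, and their deviations from their group means went together (Pearson's r = 0.574 across features, which are not independent). Fits with the slide as a block therefore stand beside the others, and for each high calcium group against DMH the block gives the value within the shared slide. On slide 1 the only DMH array is replicate 1, and hCA-Tumor replicate 3, alone on slide 3, does not enter these values. The high calcium groups shared no slide, and the block compares them through the DMH arrays of slides 1 and 2.

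**Figure D1:**
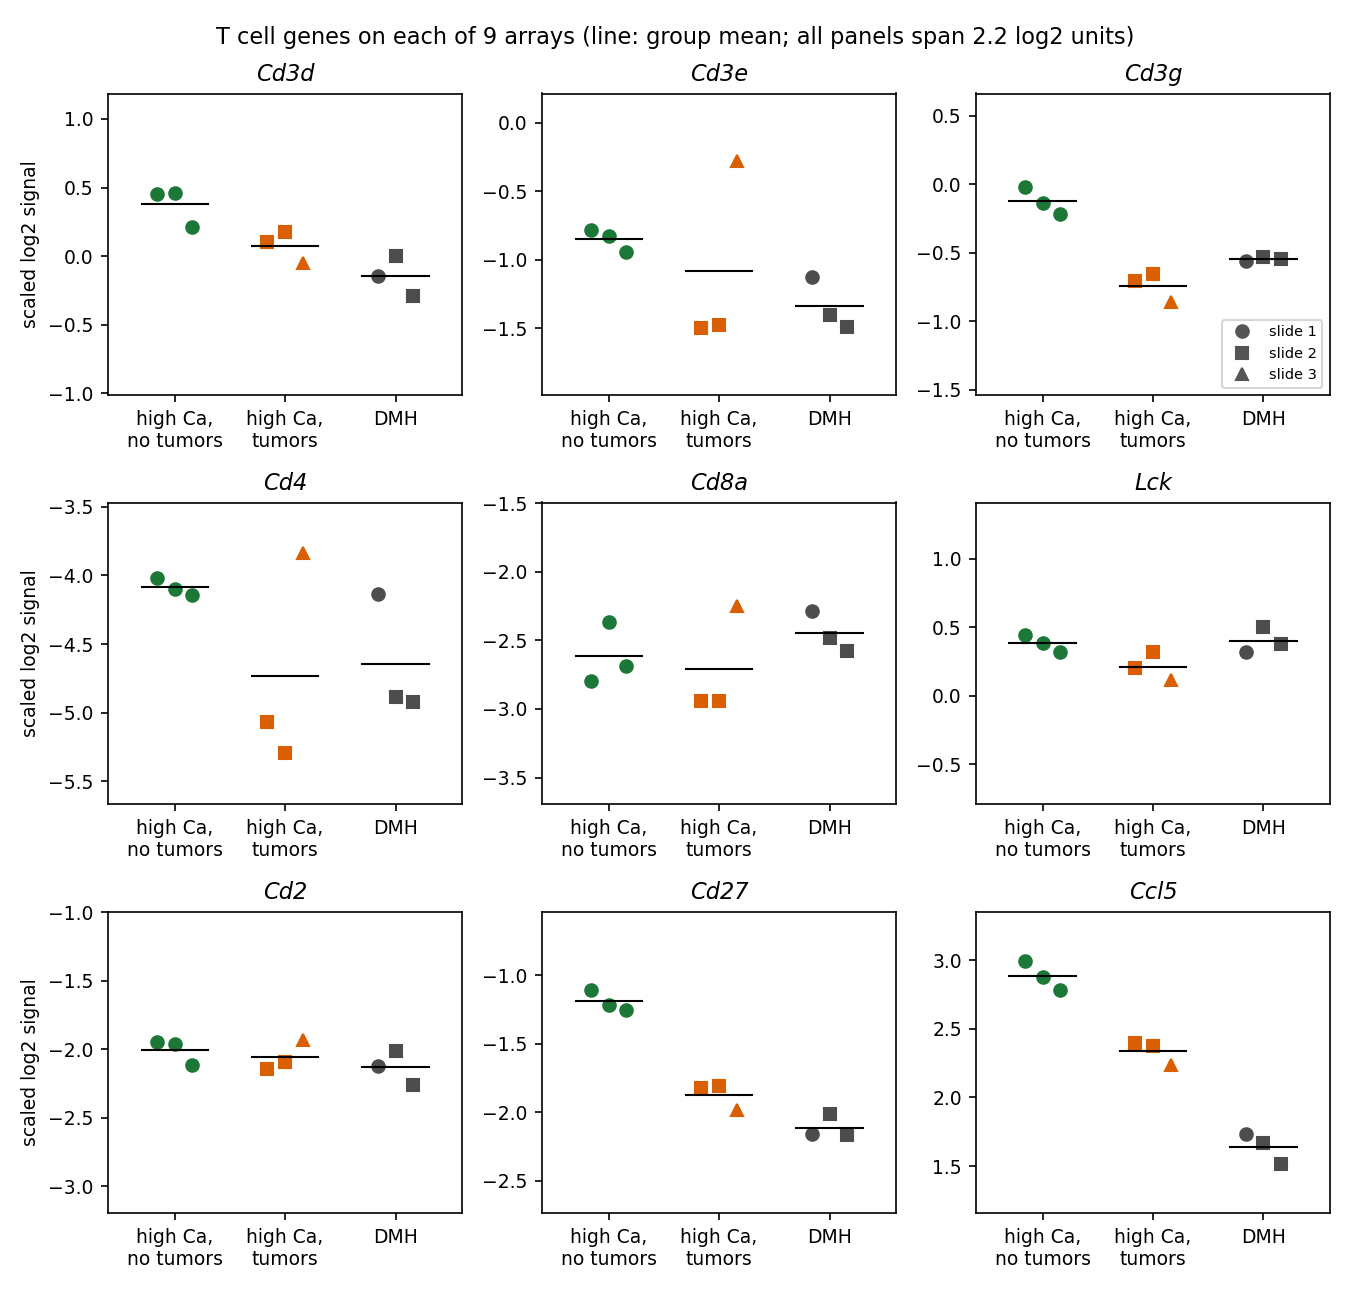
Scaled log2 signal (y axis) of the 9 T cell genes on each of the 9 arrays. Points are single arrays, marker shapes are slides, lines are group means, and every panel spans the same range of log2 units. All hCA-Notumor points of Cd3d, Cd3g, Cd27 and Ccl5 lie above all DMH points, and the single triangle, hCA-Tumor replicate 3, lies far above the other hCA-Tumor points for Cd3e, Cd4 and Cd8a.

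Of the 3 CD3 genes, Cd3d and Cd3g were higher in mucosa of high calcium mice without tumors than in either of the other groups. CD3 delta pairs with CD3 epsilon in the receptor complex. Cd3d gave 0.46, 0.46 and 0.21 on the hCA-Notumor arrays, 0.10, 0.18 and -0.05 on the hCA-Tumor arrays, and -0.15, -0.00040 and -0.29 on the DMH arrays. All hCA-Notumor arrays lay above all others, while the hCA-Tumor and DMH arrays overlapped, since hCA-Tumor replicate 3 fell among the DMH arrays. In hCA-Notumor Cd3d rose 1.44-fold over DMH (log2 difference 0.52 ± 0.11, SE; adjusted p = 0.00782), and within slide 1 the difference was 0.53 (adjusted p = 0.0482). In hCA-Tumor it differed from DMH by 0.22 ± 0.11, which did not pass (adjusted p = 0.144), nor did it within slide 2 (0.29, adjusted p = 0.123). Between hCA-Notumor and hCA-Tumor the difference of 0.30 ± 0.11 was at the threshold (adjusted p = 0.049) and was lost with the slide as a block (0.24, adjusted p = 0.384). It was also lost without hCA-Notumor replicate 1 or 2 (0.26, adjusted p = 0.141, and 0.26, adjusted p = 0.137), without hCA-Tumor replicate 1, 2 or 3 (0.32, 0.35 and 0.24, adjusted p = 0.0941, 0.0575 and 0.108) and without DMH replicate 1 (0.30, adjusted p = 0.0649).

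Cd3g separated the groups more clearly than Cd3d. CD3 gamma also pairs with CD3 epsilon. Cd3g gave -0.02, -0.14 and -0.21 on the hCA-Notumor arrays, -0.71, -0.65 and -0.86 on the hCA-Tumor arrays, and -0.56, -0.53 and -0.54 on the DMH arrays. No group overlapped another: all hCA-Notumor arrays were the highest, the DMH arrays lay close together, and all hCA-Tumor arrays were the lowest. In hCA-Notumor Cd3g rose 1.34-fold over DMH (0.42 ± 0.07, adjusted p = 0.00376, and 0.44, adjusted p = 0.0163, within slide 1). It was also 1.53-fold higher than in hCA-Tumor (0.62 ± 0.07, adjusted p = 0.000462), and 0.58 higher with the slide as a block (adjusted p = 0.017). The hCA-Tumor arrays, although all below those of DMH, did not pass (-0.20 ± 0.07, adjusted p = 0.0671, and -0.15, adjusted p = 0.162, within slide 2).

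Cd3e encodes CD3 epsilon, which is shared by both CD3 pairs and without which no T cell receptor reaches the surface. Cd3e gave -0.78, -0.82 and -0.94 on the hCA-Notumor arrays, -1.50, -1.47 and -0.28 on the hCA-Tumor arrays, and -1.12, -1.40 and -1.49 on the DMH arrays. The hCA-Notumor arrays lay above all DMH arrays, but hCA-Tumor replicate 3 was the highest array of all, while the other hCA-Tumor arrays lay at the low end together with DMH replicate 3. No difference of Cd3e passed: 0.49 ± 0.31 for hCA-Notumor against DMH (adjusted p = 0.254), 0.26 ± 0.31 for hCA-Tumor against DMH (adjusted p = 0.582) and 0.23 ± 0.31 for hCA-Notumor against hCA-Tumor (adjusted p = 0.576). Without hCA-Tumor replicate 3 the first and the third passed, at 0.49 (adjusted p = 0.00931) and 0.64 (adjusted p = 0.00369), and the second was -0.15 (adjusted p = 0.332). Within slide 1, hCA-Notumor was 0.27 ± 0.08 above DMH (adjusted p = 0.0537), and within slide 2, hCA-Tumor differed from DMH by -0.04 ± 0.07 (adjusted p = 0.657).

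Lck, the kinase that starts signalling at the receptor, passed in no comparison, either in the fit of the 3 groups or with the slide as a block. It gave 0.45, 0.39 and 0.32 on the hCA-Notumor arrays, 0.20, 0.32 and 0.12 on the hCA-Tumor arrays, and 0.32, 0.50 and 0.38 on the DMH arrays. The groups overlapped, although the hCA-Tumor arrays were mostly at the lower end. The difference was -0.02 ± 0.07 for hCA-Notumor against DMH (adjusted p = 0.867; 0.06 ± 0.09 within slide 1) and -0.19 ± 0.07 for hCA-Tumor against DMH (adjusted p = 0.0876). For hCA-Notumor against hCA-Tumor it was 0.17 ± 0.07 (adjusted p = 0.0967).

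By the probe that stood for each gene, and with no slide or array weight in the fit, the coreceptor genes did not pass in the 4 comparisons, and for both hCA-Tumor replicate 3 was the highest array. Cd4 exceeded background clearly on 8 of 9 arrays, hCA-Tumor replicate 2 being the exception, and the other 8 genes did so on all 9. Cd4 gave -4.02, -4.10 and -4.14 on the hCA-Notumor arrays, -5.07, -5.30 and -3.84 on the hCA-Tumor arrays, and -4.13, -4.89 and -4.92 on the DMH arrays. The hCA-Notumor arrays were close together, while hCA-Tumor replicate 3 and DMH replicate 1 lay far above the other arrays of their groups, at about the hCA-Notumor level. The differences were 0.56 ± 0.39 for hCA-Notumor against DMH (adjusted p = 0.283), -0.09 ± 0.39 for hCA-Tumor against DMH (adjusted p = 0.894) and 0.65 ± 0.39 for hCA-Notumor against hCA-Tumor (adjusted p = 0.208). Within slide 1, where hCA-Notumor is set against DMH replicate 1, the first was 0.05 ± 0.10 (adjusted p = 0.761), and within slide 2 the second was -0.28 ± 0.09 (adjusted p = 0.0503). Without hCA-Tumor replicate 3 the third was 1.10 (adjusted p = 0.00802), but this rests on 2 hCA-Tumor arrays, and as Cd4 was not well above background on replicate 2 its size is not exact. With arrays weighted by their fit Cd4 was higher in hCA-Notumor than in DMH (0.77, adjusted p = 0.0118) and than in hCA-Tumor (1.02, adjusted p = 0.00227), the size against hCA-Tumor being inexact for the same reason. Without both hCA-Tumor replicate 3 and DMH replicate 1, a setting chosen after seeing the data, Cd4 and Cd3e were higher in hCA-Notumor than in DMH (0.82, adjusted p = 0.00059, and 0.59, adjusted p = 0.000784).

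The repeated spots of Cd4 disagreed on hCA-Tumor replicate 3. Of its 10 spots there, 3 had processed signals of 11.6 to 22.2 and 7 had 78.5 to 112, and the SD over spots was 1.28 on the log2 scale. The 3 low spots lay at rows 56, 88 and 130 of the array and the 7 high spots at rows 136 to 500. On the other 8 arrays the SD over the Cd4 spots was 0.15 to 0.64, and no spot used exceeded 58.9. On hCA-Tumor replicate 2 the Cd4 spots ran from 6.61 to 25.0, with 2 of 9 well above background. For Cd8a, which was printed just as often, the SD over spots was 0.08 to 0.25 on every array, and 0.08 on hCA-Tumor replicate 3.

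**Figure D2:**
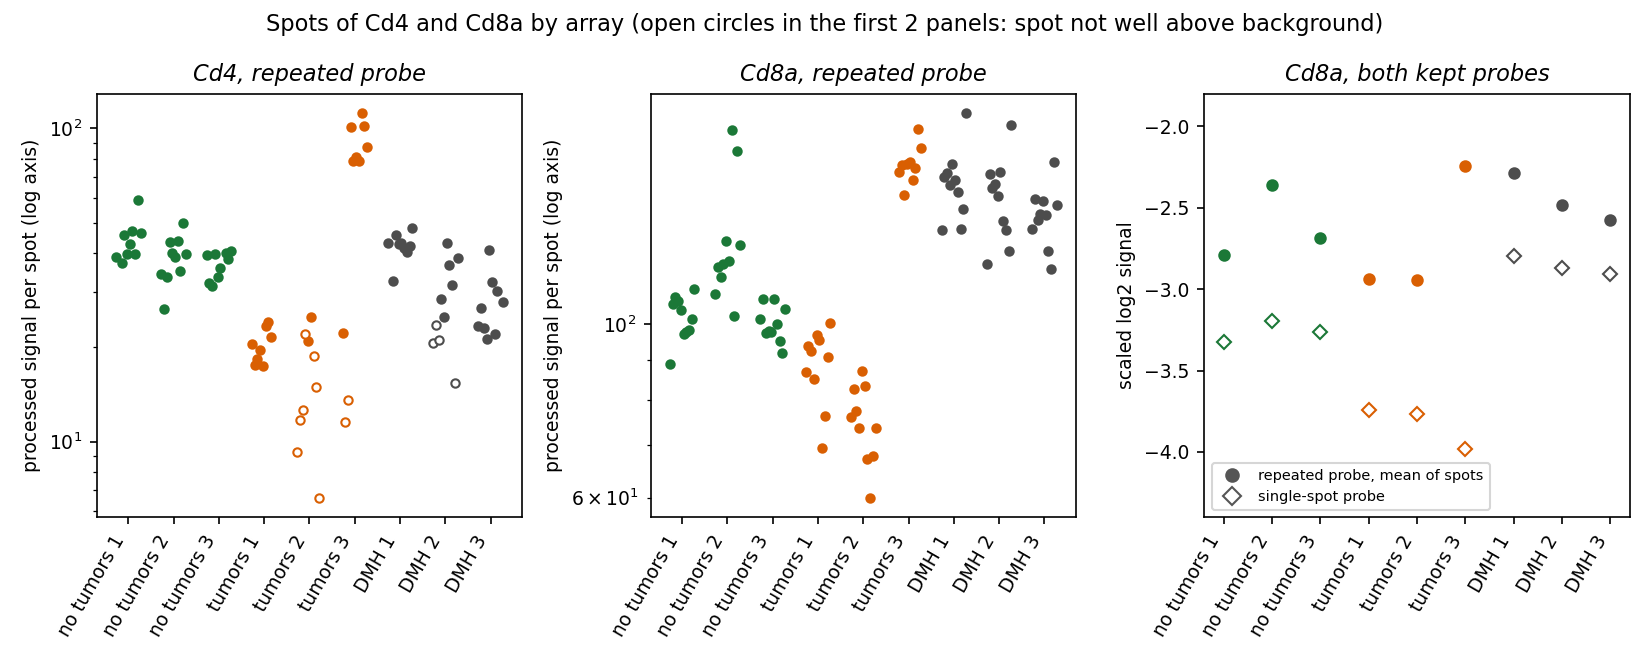
Processed signal of every repeated spot of Cd4 (left) and Cd8a (middle) by array on log axes, and the scaled log2 signal of both kept Cd8a probes (right). Colours are groups, and open circles at left and in the middle are spots not well above background. On hCA-Tumor replicate 3 ("tumors 3") the Cd4 spots split into 3 of at most 22.2 and 7 of at least 78.5, and at right that array has the highest value of one Cd8a probe and the lowest of the other.

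Cd8a encodes the alpha chain of CD8, present in conventional cytotoxic T cells and, as a homodimer, in many intraepithelial lymphocytes. The repeated probe, which was the brighter and stood for the gene, gave -2.79, -2.36 and -2.69 on the hCA-Notumor arrays, -2.94, -2.94 and -2.25 on the hCA-Tumor arrays, and -2.29, -2.48 and -2.58 on the DMH arrays. All groups overlapped, with hCA-Tumor replicate 3 the highest array and the other hCA-Tumor arrays the lowest. By this probe the difference from DMH was -0.17 ± 0.21 in hCA-Notumor (adjusted p = 0.54) and -0.26 ± 0.21 in hCA-Tumor (adjusted p = 0.379). Within slides it was -0.33 ± 0.16 (adjusted p = 0.195) and -0.41 ± 0.14 (adjusted p = 0.061), and hCA-Tumor passed without its replicate 3 (-0.49, adjusted p = 0.0329).

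The other kept Cd8a probe, printed once and assigned to the same transcript, separated all groups. It gave -3.32, -3.19 and -3.26 on the hCA-Notumor arrays, -3.74, -3.77 and -3.98 on the hCA-Tumor arrays, and -2.80, -2.87 and -2.91 on the DMH arrays. The DMH arrays were the highest and the hCA-Tumor arrays the lowest, with no overlap, and hCA-Tumor replicate 3 was the lowest of all. Tested by itself among all 27207 kept probes, it was lower than DMH in hCA-Notumor (-0.40 ± 0.08, adjusted p = 0.00565, and -0.46, adjusted p = 0.00588, with the slide as a block). It was lower still in hCA-Tumor (-0.97 ± 0.08, adjusted p = 0.000172, and -0.87, adjusted p = 0.000573), and higher in hCA-Notumor than in hCA-Tumor (0.57 ± 0.08, adjusted p = 0.000716, and 0.40, adjusted p = 0.0206). With the mean of both probes Cd8a was likewise lower in hCA-Tumor than in DMH (-0.62, adjusted p = 0.00291), as it was in both high calcium groups averaged (-0.45, adjusted p = 0.00735). The probes thus disagreed on hCA-Tumor replicate 3, and no direction is given for Cd8a.

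Cd2, the adhesion receptor, hardly differed. It gave -1.95, -1.96 and -2.11 on the hCA-Notumor arrays, -2.15, -2.09 and -1.93 on the hCA-Tumor arrays, and -2.12, -2.01 and -2.26 on the DMH arrays. All 3 groups overlapped. Differences were 0.13 ± 0.09 for hCA-Notumor against DMH (adjusted p = 0.295), 0.08 ± 0.09 for hCA-Tumor against DMH (adjusted p = 0.557) and 0.05 ± 0.09 for hCA-Notumor against hCA-Tumor (adjusted p = 0.68), and their sign turned when arrays were centred on their median.

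Cd27, the costimulatory receptor, was highest in hCA-Notumor, lower in hCA-Tumor and lowest in DMH. It gave -1.10, -1.22 and -1.25 on the hCA-Notumor arrays, -1.83, -1.81 and -1.98 on the hCA-Tumor arrays, and -2.16, -2.02 and -2.17 on the DMH arrays. The groups did not overlap, although the lowest hCA-Tumor array and the highest DMH array were close. In hCA-Notumor Cd27 rose 1.90-fold over DMH (0.92 ± 0.07, adjusted p = 0.000121, and 0.97, adjusted p = 0.00154, within slide 1), and it was 1.60-fold higher than in hCA-Tumor (0.68 ± 0.07, adjusted p = 0.000315, and 0.69, adjusted p = 0.0115, with the slide as a block). In hCA-Tumor the rise over DMH was 1.18-fold (0.24 ± 0.07, adjusted p = 0.0348, and 0.27, adjusted p = 0.0332, within slide 2). That last call ended without hCA-Notumor replicate 2 (0.24, adjusted p = 0.0515), without hCA-Tumor replicate 1 or 2 (0.22 and 0.21, adjusted p = 0.105 and 0.11) and without DMH replicate 1 or 3 (0.22 and 0.21, adjusted p = 0.0821 and 0.108). It also ended after quantile normalization (0.15, adjusted p = 0.405), with normexp correction (0.18, adjusted p = 0.204), under median centring (0.12, adjusted p = 0.75), with the authors' series table (adjusted p = 0.739), when dim probes were kept (adjusted p = 0.088) and with only the compared groups in the fit (adjusted p = 0.0669).

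Ccl5, a chemokine that attracts T cells, monocytes and eosinophils, showed the widest differences of the 9 genes against DMH. It gave 3.00, 2.88 and 2.78 on the hCA-Notumor arrays, 2.40, 2.37 and 2.23 on the hCA-Tumor arrays, and 1.73, 1.66 and 1.51 on the DMH arrays. Each hCA-Notumor array exceeded every hCA-Tumor array, and each of those exceeded every DMH array. Ccl5 rose 2.38-fold over DMH in hCA-Notumor (1.25 ± 0.08, adjusted p = 6.39e-05, and 1.16, adjusted p = 0.00139, within slide 1) and 1.62-fold in hCA-Tumor (0.70 ± 0.08, adjusted p = 0.000845, and 0.80, adjusted p = 0.00206, within slide 2). It was 1.47-fold higher in hCA-Notumor than in hCA-Tumor (0.55 ± 0.08, adjusted p = 0.0015), a call that ended with the slide as a block (0.36 ± 0.13, adjusted p = 0.0934).

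**Figure D3:**
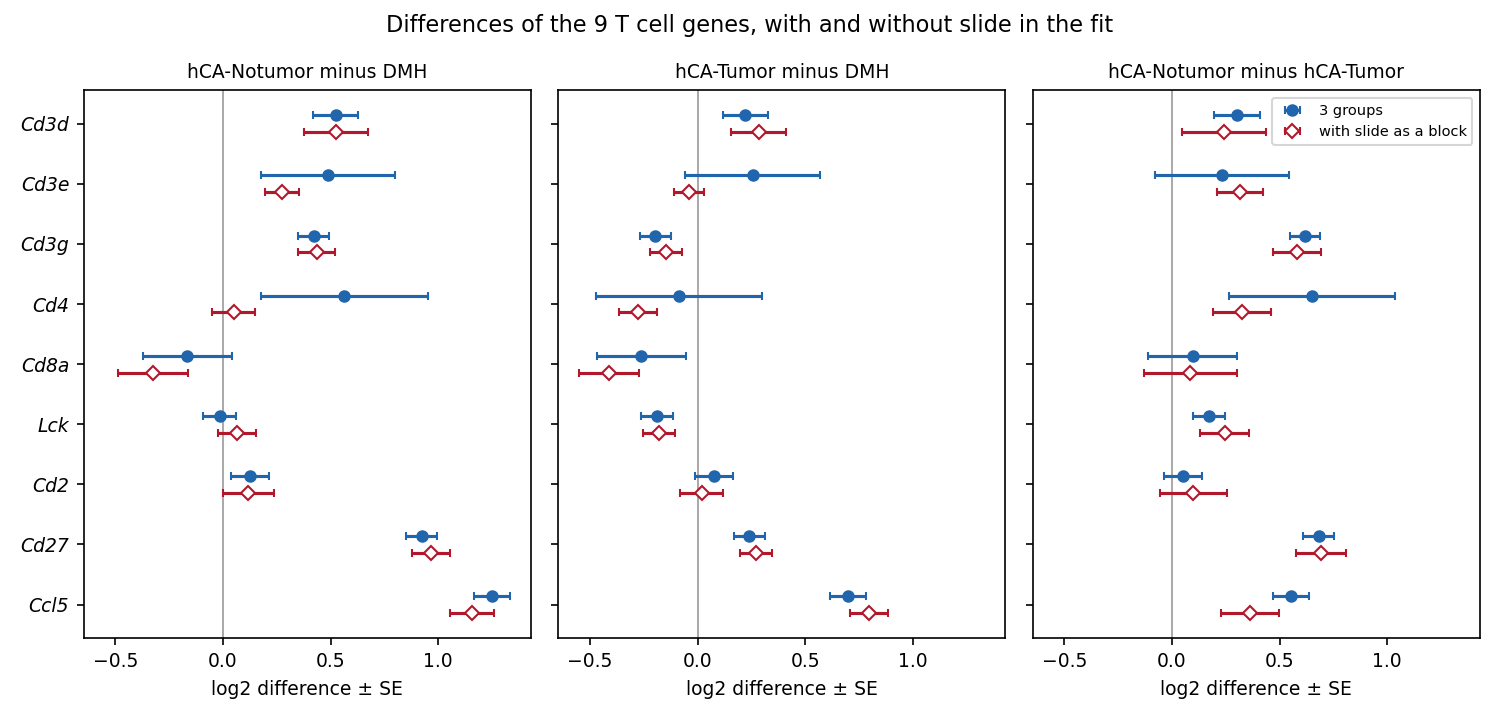
Log2 difference with its standard error (x axis) of each T cell gene in 3 comparisons. Filled circles are the fit of all 3 groups, with 3 arrays per group, and open diamonds the fit with the slide as a block. Against DMH, diamonds set hCA-Notumor beside DMH replicate 1 alone, and hCA-Tumor replicates 1 and 2 beside DMH replicates 2 and 3. For Cd3d, Cd2, Cd27 and Ccl5 both fits lie right of 0 in all comparisons, and for Cd3e and Cd4 the fit of the 3 groups has the widest errors.

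The first comparison asked how mucosa on high calcium, both groups averaged, compared with DMH. Cd3d, Cd27 and Ccl5 were higher by 0.37 ± 0.09 (adjusted p = 0.0187), 0.58 ± 0.06 (adjusted p = 0.000611) and 0.98 ± 0.07 (adjusted p = 0.000141). These 3 of 9 genes rose and 0 fell, where 17.8% of all features rose and 13.8% fell, 31.6% in all. The unadjusted p gave the same counts. These counts take Cd8a from its repeated probe, and the other kept Cd8a probe was lower than in DMH (-0.69, limma adjusted p = 0.000393). The arrays did not overlap for Cd27 and Ccl5, both higher, as for 10.6% of features, while 9.43% were lower without overlap. The median difference of the 9 genes was 0.24 and that of all features 0.07. The call of Cd3d ended without DMH replicate 3 (0.30, adjusted p = 0.0805). The calls of Cd3d and Cd27 both ended under median centring (0.22, adjusted p = 0.441, and 0.43, adjusted p = 0.129) and with the authors' series table (adjusted p = 0.409 and 0.101). They also ended when the fit merged hCA-Notumor and hCA-Tumor (adjusted p = 0.119 and 0.138). Each of these settings left Ccl5. With the slide as a block 4 genes passed, 3 higher and 1 lower (Cd8a, -0.37, adjusted p = 0.0411), where 21.5% of features were higher and 17.4% lower, 38.8% in all.

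The second comparison set hCA-Notumor against DMH. Cd3d, Cd3g, Cd27 and Ccl5 rose and 0 genes fell, so 4 of 9 passed where 18.4% of all features rose and 17.3% fell, 35.7% in all. In 5 genes, these and Cd3e, all hCA-Notumor arrays lay above all DMH arrays, as they did for 33.8% of features, and lay below for 24.1%. The median of the 9 genes was 0.49, against 0.07 over all features, and 0.27 against 0.02 with the slide as a block, where the same 4 genes passed, all higher, and 14.1% of features were higher and 12.6% lower, 26.7% in all. The values within slide 1 gave the same shares. These counts take Cd8a from its repeated probe, and the other kept Cd8a probe was lower in hCA-Notumor than in DMH (-0.40, limma adjusted p = 0.00565). Without both DMH replicate 1 and hCA-Tumor replicate 3, 6 of the 9 passed. In that setting 12618 of 21094 features passed too, 7751 higher and 4867 lower.

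The third comparison set hCA-Tumor against DMH. Cd27 and Ccl5 rose and 0 genes fell, so 2 of 9 passed where 21% of features rose and 15.9% fell, 36.9% in all. At an unadjusted p under 0.05, 2 more genes, Cd3g and Lck, were lower. For Cd27 and Ccl5 all hCA-Tumor arrays lay above all DMH arrays, as for 28.2% of features, and for Cd3g they lay below, as for 21.3%. The median of the 9 genes was 0.08, as was that of all features. With the slide as a block, and within slide 2, the same 2 genes passed, where 23.9% of features were higher and 18.6% lower, 42.5% in all. These counts take Cd8a from its repeated probe. The other kept Cd8a probe was lower in hCA-Tumor than in DMH (-0.97, limma adjusted p = 0.000172, and -0.87, adjusted p = 0.000573, with the slide as a block). This comparison shares its DMH arrays with the second, so their values stand side by side and are not independent.

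The fourth comparison set hCA-Notumor against hCA-Tumor, which were on the same diet. Cd3d, Cd3g, Cd27 and Ccl5 were higher in hCA-Notumor and 0 genes were lower, so 4 of 9 passed where 20.6% of features were higher and 27% lower, 47.5% in all. The arrays of the same 4 genes did not overlap, as for 25.9% of features, while 33.2% were lower without overlap. The median of the 9 genes was 0.30 and that of all features -0.0023. With the slide as a block only Cd3g and Cd27 passed, both higher, where 14.4% of features were higher and 15.6% lower, 30% in all.

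The size of these differences depends on how arrays are scaled. Centred on their median in place of the 75th percentile, the median of all features was -0.11 in hCA-Notumor against DMH, -0.05 in hCA-Tumor against DMH and -0.09 for the mean of both, against 0.07, 0.08 and 0.07 before. Relative to the median of all features, hCA-Notumor exceeded DMH by 0.45 for Cd3d, 0.35 for Cd3g, 0.85 for Cd27 and 1.18 for Ccl5. Both scalings subtract a constant from each array, so these values are the same under either by construction. After quantile normalization they were 0.52, 0.41, 0.87 and 1.23. The standard errors were wider under median centring (0.19, 0.18, 0.18 and 0.18), and the calls of Cd3d (adjusted p = 0.257) and Cd3g (adjusted p = 0.397) against DMH were lost, while Cd27 (adjusted p = 0.0264) and Ccl5 (adjusted p = 0.00438) stayed. Relative to the same median hCA-Tumor exceeded DMH by 0.16 for Cd27 and 0.62 for Ccl5, and neither passed under median centring (adjusted p = 0.75 and 0.0732). Between the high calcium groups only Cd27 passed under median centring (adjusted p = 0.0376). The share of features called that were higher was 51.5% in hCA-Notumor against DMH, 56.9% in hCA-Tumor and 56.5% in their mean, and under median centring it was 32.6, 37.8 and 31.9%.

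The 9 genes did not vary as one block over the 9 arrays. Pearson's r, given as a description over arrays that share groups and slides, was 0.937 between Cd27 and Ccl5, 0.928 between Cd3d and Cd27 and 0.925 between Cd3d and Ccl5. Cd3e went with Cd4 (0.903), and the CD3 genes were less alike, at 0.711 for Cd3d and Cd3g, 0.303 for Cd3d and Cd3e and 0.175 for Cd3e and Cd3g. The named genes most like the mean of the 3 CD3 genes were Plekho2 (r = 0.984), Mcur1 (0.969) and Resp18 (0.968). Those most like Cd4 were Olfr502 (0.992) and Sstr4 (0.991), most like Cd8a Zfp949 (0.977) and Cyp3a41a (0.972), and most like Ccl5 Id4 (0.992) and Cyp2c40 (0.991). With 9 arrays and 14193 named genes such values arise easily and say nothing of shared function.

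Other genes of T cells were read from 7 lists, and each pair of slide-blocked counts gives those higher and lower with the slide as a block. Of 24 measured genes of receptor signalling, 5 rose and 4 fell in hCA-Notumor against DMH (median 0.11, slide-blocked 4 and 0), 5 rose and 2 fell in hCA-Tumor (median 0.07, slide-blocked 6 and 2), and 5 were higher and 5 lower in hCA-Notumor than in hCA-Tumor (median -0.02, slide-blocked 1 and 2). Lat, the adaptor that is phosphorylated downstream of the receptor, rose by 1.07 ± 0.12 in hCA-Notumor against DMH (adjusted p = 0.000541). Cd247, the zeta chain of the same receptor complex, averaged -2.12 ± 0.11 in hCA-Notumor, -2.38 ± 0.14 in hCA-Tumor and -2.71 ± 0.04 in DMH (SD, n = 3 arrays each) and rose by 0.59 in hCA-Notumor (limma adjusted p = 0.00158). With normexp correction it did not pass (0.36, adjusted p = 0.0646). Nfatc3, a transcription factor switched on by calcium signals, rose by 0.93 in hCA-Notumor (adjusted p = 0.000108) and fell by 0.33 in hCA-Tumor (adjusted p = 0.00938), the fall being lost with normexp correction (adjusted p = 0.0672).

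Of 21 genes of T cell identity and transcription, 7 rose and 4 fell in hCA-Notumor against DMH (median 0.17, slide-blocked 6 and 4), and 4 rose and 2 fell in hCA-Tumor (median 0.08, slide-blocked 4 and 3). Tcf7, a factor of naive and memory T cells, fell by 0.64 in hCA-Notumor (adjusted p = 0.00145). Runx3, a factor of CD8 T cells, rose by 0.67 there (adjusted p = 0.000518), a call that ended with the mean of its probes (0.69, adjusted p = 0.188). Of 17 costimulation and checkpoint genes 6 rose and 0 fell in hCA-Notumor (median 0.18, slide-blocked 4 and 1), and 4 rose and 3 fell in hCA-Tumor (median 0.14, slide-blocked 7 and 4). Icos, a receptor of activated T cells, fell by 1.22 in hCA-Tumor against DMH (adjusted p = 0.000275), and was 1.65 higher in hCA-Notumor than in hCA-Tumor (adjusted p = 4.16e-05). Pdcd1, the inhibitory receptor PD-1, fell by 0.57 in hCA-Tumor (adjusted p = 0.00157). Icosl, the ligand of ICOS, was among the 4 that rose in hCA-Tumor (0.62, adjusted p = 0.000729), a call that ended under median centring (adjusted p = 0.124).

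Among 10 ligands and receptors of the 9 genes' products, 3 rose and 0 fell in hCA-Notumor against DMH (median 0.02, slide-blocked 1 and 0), and 0 rose and 2 fell in hCA-Tumor (median -0.01, slide-blocked 0 and 1). H2-D1, an MHC class I heavy chain that CD8 binds, averaged 6.64 ± 0.09 in hCA-Notumor, 5.96 ± 0.05 in hCA-Tumor and 6.18 ± 0.09 in DMH, and was 0.68 higher in hCA-Notumor than in hCA-Tumor (adjusted p = 0.000293). Cd48, the ligand of CD2, differed by -0.06 in hCA-Notumor against DMH (adjusted p = 0.55). Of 17 genes of gut homing and retention 7 rose and 2 fell in hCA-Notumor (median 0.24, slide-blocked 5 and 2), and 4 rose and 2 fell in hCA-Tumor (median 0.10, slide-blocked 5 and 2). Cd44, an adhesion receptor of activated T cells and of many other cells, fell by 1.16 in hCA-Notumor and by 0.50 in hCA-Tumor (adjusted p = 6.34e-06 and 0.000305). Ccr7, which leads T cells into lymphoid tissue, rose by 0.85 in hCA-Notumor (adjusted p = 0.000865).

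Of 10 other chemokines that attract T cells, 4 rose and 2 fell in hCA-Notumor against DMH (median 0.13, slide-blocked 3 and 2), and 1 rose and 2 fell in hCA-Tumor (median 0.04, slide-blocked 2 and 2). Ccl19 and Ccl21a, the ligands of CCR7, rose by 1.16 and 0.74 in hCA-Notumor (adjusted p = 0.000131 and 0.000212). Cxcl9, a ligand of CXCR3 induced by interferon gamma, averaged -1.32 ± 0.05 in hCA-Notumor, -2.38 ± 0.05 in hCA-Tumor and -1.81 ± 0.03 in DMH. It was 1.06 higher in hCA-Notumor than in hCA-Tumor (adjusted p = 1.38e-05). Of 13 cytotoxic and natural killer genes 2 rose and 5 fell in hCA-Notumor (median -0.21, slide-blocked 2 and 5), and 2 rose and 0 fell in hCA-Tumor (median 0.07, slide-blocked 2 and 0). Among the 2 that rose in hCA-Notumor, Ifng was well above background on 3 hCA-Notumor, 2 hCA-Tumor and 2 DMH arrays. It passed the filter on dim probes only through hCA-Notumor, so its direction is not read. Among the 5 that fell, Gzma and Gzmc were well above background on 1 and 0 hCA-Notumor arrays, and their levels there are not exact. Gzmb, the protease granzyme B, fell by 1.74 in hCA-Notumor (adjusted p = 0.000254). The share of features called for all these counts is the one given above for each comparison, and with median centring the calls of Ccr7 (adjusted p = 0.0641) and Ccl21a (adjusted p = 0.0517) in hCA-Notumor against DMH were lost.

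**Figure D4:**
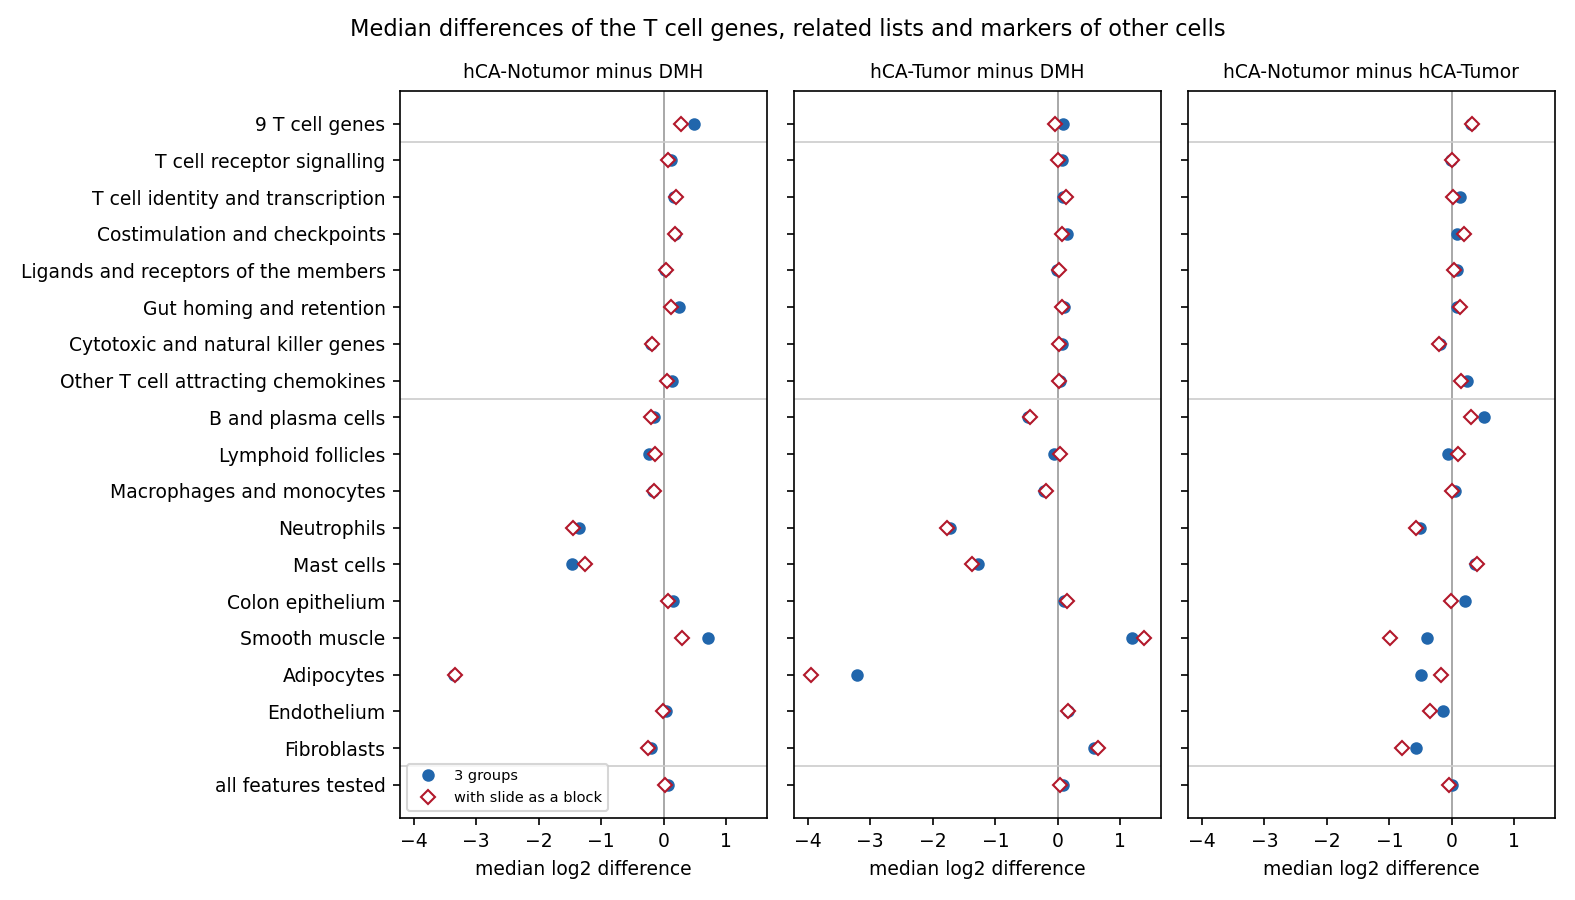
Median log2 difference (x axis) of the 9 T cell genes, of 7 related gene lists, of markers of 10 other cell types or structures and of all features, in 3 comparisons. Filled circles are the fit of all groups and open diamonds the fit with the slide as a block. The median of the 9 T cell genes is 0.49 in hCA-Notumor against DMH, 0.08 in hCA-Tumor against DMH and 0.30 between the high calcium groups. The medians of adipocyte, neutrophil and mast cell markers lie far left of 0 in both comparisons with DMH. The neutrophil median is that of Retnlg, which passed the filter on dim probes only through DMH.

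Markers of other cells moved in the same arrays. Their levels are sums over a list of the scaled signals on a linear scale, in multiples of the array's 75th percentile. The sum of B and plasma cell markers was 92.6 to 97.4 in hCA-Notumor, 62.3 to 76.9 in hCA-Tumor and 95.1 to 98.7 in DMH, and 11 of 13 of these genes fell in hCA-Tumor, Cd79a among them (-0.90), where 15.9% of all features fell. With the slide as a block 8 of the 13 fell there, where 18.6% of features did. In hCA-Notumor against DMH 0 of the 13 rose and 3 fell (median -0.15), where 17.3% of features fell. With the slide as a block 0 of them fell in that comparison, where 12.6% of features did. Jchain, the brightest gene of the list, weighed most in the sum, at scaled log2 means of 5.93 in hCA-Notumor, 5.41 in hCA-Tumor and 5.88 in DMH. The sum of lymphoid follicle markers, which overlapped, was 48.6 to 53.3 in hCA-Notumor, 46.7 to 57.2 in hCA-Tumor and 46.8 to 53.2 in DMH. The sum of macrophage and monocyte markers was 31.4 to 33.5, 28.8 to 32.2 and 34.9 to 35.4 in the same order of groups, and of 11 genes 1 rose and 4 fell in hCA-Notumor against DMH, and 2 rose and 4 fell in hCA-Tumor, where 18.4% and 21% of features rose and 17.3% and 15.9% fell.

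Neutrophil markers summed to 0.364 to 0.412 in hCA-Notumor, 0.653 to 0.700 in hCA-Tumor and 3.08 to 3.24 in DMH, with Elane and Cxcr2 not above background on any array. Retnlg was well above background on 1 hCA-Notumor, 0 hCA-Tumor and 3 DMH arrays. It passed the filter on dim probes only through DMH, so its direction is not read. S100a8 was well above background on 0 hCA-Notumor arrays, and its level there is not exact. Mast cell markers summed to 3.27 to 3.76, 2.28 to 2.87 and 7.21 to 8.90, and adipocyte markers to 5.34 to 8.86, 8.70 to 15.2 and 38.6 to 42.4 in the same order. Smooth muscle markers summed to 436 to 542 in hCA-Notumor, 614 to 801 in hCA-Tumor and 235 to 402 in DMH, and fibroblast markers to 92.9 to 99.8, 160 to 171 and 111 to 121. Colon epithelium, at 1550 to 1709, 1510 to 1643 and 1395 to 1615, and endothelium, at 5.82 to 6.49, 7.10 to 7.44 and 6.26 to 7.18, differed less. The part of these other cells in the values of the T cell genes was not tested. Ptprc, the leukocyte surface protein CD45, averaged 2.17 ± 0.07 in hCA-Notumor, 2.23 ± 0.17 in hCA-Tumor and 2.37 ± 0.10 in DMH, and its difference in hCA-Notumor against DMH was -0.20 (adjusted p = 0.153).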

How the data were processed

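RNA of 9 colonic mucosa samples was measured on 1-colour Agilent arrays, 1 sample on each. Per the file headers, the deposited intensity used here is the processed signal, already background-subtracted by the scanner software (Feature Extraction 10.5.1.1, per the submitters' processing notes). The deposited series table gives log2 values for 23726 probes; set against the scanner values, its columns were the log2 processed signal less a constant near the median of that array (Pearson's r of at least 0.99999, column medians 2.36 to 2.80). The sources used here do not say how those probes were picked.

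The log2 intensity was scaled by subtracting the 75th percentile of the array (572.5 to 819.2 before log2). Control and outlier spots were dropped (383 probes had an outlier spot), and a probe's spots were averaged. A probe was kept if every array of some group showed it well above background, which left 27207 probes; the brightest stood for its gene, giving 21095 features, 6902 of them unnamed. Transcript accessions were matched to a RefSeq table of GRCm38.p6, giving 25097 probes with 1 symbol and 16077 with none here. limma 3.58.1 (R 4.3.3) was fitted to all 9 arrays, and Benjamini-Hochberg adjusted p-values over all features were read at 0.05 in each comparison. The scripts' statistics were tested on simulated data drawn independently for each array, with no slide effect, so that test does not cover the slides. Slides were read from the first part of each array's scanner barcode. The number of arrays limits precision.

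The 9 genes, the lists and the tests were chosen with earlier results of these data known. All 9 genes are reported in each comparison. From a related list, up to 4 genes past the threshold with the largest differences could be named per comparison, and from a marker list up to 3; Cd48 and Ptprc were named after their values were seen. Likeness was ranked by Pearson's r. The alternatives were the slide block and values from 1 slide, normexp (offset 50), quantile or median scaling, the series table, looser and stricter probe filters, averaged or separate probes, a robust trended fit, weighted arrays, fits of compared groups, a replicate block, and single arrays left out. For the mean of both high calcium groups, the fit of compared groups kept all arrays and merged hCA-Notumor with hCA-Tumor. Dropping DMH replicate 1 together with hCA-Tumor replicate 3 was added after seeing the data.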

Additional observations from a re-analysis of the deposited data

How the results depend on the processing

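With 9 genes and 4 comparisons, 748 of the values recomputed under alternatives kept direction and side of the threshold, 43 lost a call, 22 gained one and 29 changed sign, and all sign changes were in differences that had not passed. The cause was not tested. The number of the 9 genes past the threshold was 3 for both high calcium groups against DMH. It became 1 under median centring, with the series table and when the fit merged hCA-Notumor and hCA-Tumor. It was 5 without both DMH replicate 1 and hCA-Tumor replicate 3. It was 4 for hCA-Notumor against DMH, and 2 under median centring and with the series table. It was 2 for hCA-Tumor against DMH, and became 1 under normexp correction, quantile normalization, without the filter on dim probes and with only the compared groups, 4 with array weights, and 0 in limma under median centring and with the series table, where 2 had an unadjusted p under 0.05 each time. It was 4 for hCA-Notumor against hCA-Tumor, and 2 with the slide as a block, 1 under median centring and 2 with the series table. Leaving out one array gave 2 to 3, 4 to 5, 1 to 3 and 3 to 5 genes in these comparisons. All features past the threshold varied in number over the settings too. For both high calcium groups against DMH 6663 passed, 2103 under median centring and 9635 without both DMH replicate 1 and hCA-Tumor replicate 3. For hCA-Tumor against DMH 7794 passed, 2215 under median centring and 10515 with array weights. For both high calcium groups averaged, array weights gave 10346 features but still 3 of the 9 genes.

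Signs changed as follows. For the mean of both groups against DMH, Cd4 was -0.11 with the slide as a block, Cd3g was -0.043 and Cd2 -0.053 under median centring, and with the series table they were -0.046 and -0.056. For hCA-Notumor against DMH, Lck was 0.064 with the slide as a block and within a slide, 0.0024 after quantile normalization and -0.057 to 0.035 when one array was left out, and Cd2 was -0.059 under median centring and -0.062 with the series table. For hCA-Tumor against DMH, Cd3e was -0.041 with the slide as a block, within a slide and without both DMH replicate 1 and hCA-Tumor replicate 3, and -0.15 to 0.46 when one array was left out. Cd4 was 0.11 under normexp correction, 0.080 with the series table and -0.53 to 0.20 when one array was left out, and Cd2 was -0.047 under median centring and -0.049 with the series table. For hCA-Notumor against hCA-Tumor, Cd8a was -0.0099 under normexp correction and -0.031 to 0.33 when one array was left out, and Cd2 was -0.013 under median centring and -0.012 with the series table.

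The replicate numbers did not pair the arrays: deviations of arrays with the same number correlated at -0.567 to 0.221. With the replicate block 3, 4, 3 and 4 of the 9 genes passed, and Cd3d in hCA-Tumor against DMH was at 0.22 (adjusted p = 0.0277). Under the alternatives 179 of the recomputed calls of genes named from the related lists were lost and 0 changed sign, while 1601 were kept. The number of list genes past the threshold in hCA-Notumor against DMH, with its range over the alternatives, was 9 (3 to 14) for receptor signalling, 11 (5 to 14) for identity, 6 (0 to 13) for costimulation, 3 (0 to 3) for ligands and receptors, 9 (3 to 11) for homing, 6 (2 to 7) for chemokines and 7 (2 to 10) for cytotoxic genes. In hCA-Tumor against DMH it was 7 (0 to 11) for receptor signalling, 6 (3 to 7) for identity, 7 (3 to 11) for costimulation, 2 (0 to 4) for ligands and receptors, 6 (1 to 9) for homing, 3 (1 to 4) for chemokines and 2 (0 to 3) for cytotoxic genes, and between the high calcium groups 10 (3 to 14) for receptor signalling, 10 (3 to 14) for identity, 8 (3 to 11) for costimulation, 2 (1 to 4) for ligands and receptors, 8 (2 to 13) for homing, 6 (4 to 10) for chemokines and 6 (1 to 10) for cytotoxic genes. These ranges stand beside wide ones for all features, in hCA-Notumor against DMH from 2989 under median centring to 13034 with array weights. Cd4 lay close to background.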

Other observations

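One more Cd8a probe, assigned to another Cd8a transcript, was well above background on 4 of 9 arrays and did not pass the filter. Its scaled log2 signals were -5.31, -5.25 and -5.02 on the hCA-Notumor arrays, -5.94, -5.66 and -5.44 on the hCA-Tumor arrays, and -4.90, -5.26 and -4.85 on the DMH arrays. The hCA-Tumor arrays were the lowest for this probe, as they were for the kept single-spot Cd8a probe, and hCA-Tumor replicate 3 was not raised above the other groups. These values were chosen after they were seen and were not tested.

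The mean of Cd3d, Cd3e and Cd3g, each centred on its own mean over the arrays, was 0.37, 0.32 and 0.17 on the hCA-Notumor arrays, -0.22, -0.16 and 0.09 on the hCA-Tumor arrays, and -0.12, -0.16 and -0.29 on the DMH arrays. The hCA-Notumor arrays were the highest, and hCA-Tumor replicate 3 lay above the DMH arrays.

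Ikzf2, which encodes Helios, a factor of regulatory T cells, fell by 0.59 in hCA-Notumor against DMH and rose by 0.76 in hCA-Tumor (adjusted p = 0.00531 and 0.00172 in limma). Its difference between hCA-Notumor and hCA-Tumor was -1.34 (adjusted p = 0.000104). With the mean of its probes the difference in hCA-Notumor against DMH was -0.11 (adjusted p = 0.63). Foxp3, the defining factor of those cells, differed by 0.28 in hCA-Notumor against DMH (adjusted p = 0.225), and was named after its values were seen.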
